A study of Homo sapiens with 16 samples.

Results

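The nuclear genes of respiratory chain complexes I, II and III were followed through the neural differentiation of H9 cells, an established line of human embryonic stem cells. They were taken by symbol, as every NDUFA, NDUFB, NDUFC, NDUFS or NDUFV gene with a number, SDHA to SDHD, and UQCRB, UQCRC1, UQCRC2, UQCRFS1, UQCRH, UQCRQ, UQCR10 and UQCR11, with pseudogenes left out. This gave 49 of the 57736 genes in the table: 37 of complex I, 4 of complex II and 8 of complex III. All 49 passed the filter on low counts, with 24249 genes in all. RNA was taken from undifferentiated cells (D0) and on D12, D30 and D70 of a cortical protocol, in which the SMAD inhibitors LDN193189 and SB431542 direct the cells to a neural fate. At each stage there were 2 control libraries, from cells given the solvent DMSO, and 2 TMG libraries, from cells kept in 40 µM Thiamet-G, an inhibitor of O-GlcNAcase, the enzyme that removes O-GlcNAc from proteins. All 16 libraries come from the same line and the same protocol, and the D0 cells of the TMG arm were also treated. The arms follow the library titles, with which the sample descriptions go in all 16 libraries. The treatment characteristic follows the replicate number and names the other arm in 8 libraries, so the direction of each TMG difference rests on the titles. Replicates are described as biological, but nothing says which cultures they came from, so p-values measure the spread between these libraries.

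Complex I passes electrons from NADH to ubiquinone and pumps protons across the inner mitochondrial membrane. Its catalytic arm holds the core subunits that carry the flavin and iron-sulfur clusters or hold them in place, encoded among others by NDUFV1, NDUFV2, NDUFS1, NDUFS3, NDUFS7 and NDUFS8, and its many accessory subunits serve assembly and stability. Complex II, succinate dehydrogenase, is also an enzyme of the citric acid cycle: SDHA carries the flavin, SDHB the iron-sulfur clusters, and SDHC and SDHD anchor the enzyme in the membrane. Complex III passes electrons from ubiquinol to cytochrome c, through the Rieske iron-sulfur protein UQCRFS1, with UQCRC1 and UQCRC2 as its core proteins and UQCRH as the hinge protein beside cytochrome c1. NDUFA4 keeps its old symbol but its product is now assigned to complex IV. By that symbol it is counted here with complex I, in its sums and medians too. Stem cells are known for a high use of glycolysis, and neurons for a high use of respiration.

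The libraries held between 10334908 and 19836878 counts. Levels are CPM on library sizes scaled by TMM, edgeR's trimmed mean of M-values, and changes between groups are log2 fold changes with their standard error. A gene is said to have risen or fallen where it passed a false discovery rate of 5% in edgeR's quasi-likelihood test, fitted over all genes and all libraries. Over 6 stem cell markers the summed level was 3228 to 3697 CPM on D0 and 1.90 to 3.47 CPM on D70, and over the 5 of 6 neural progenitor markers that were tested it was 401 to 620 CPM on D0 and 654 to 1249.8 CPM on D12, which goes with the labels. By gene, 3 of these 5 had a log2 fold change above 0 from D0 to D12 and 2 below 0, in each arm. Their median was 0.59 in control cells and 0.13 with TMG. The libraries differed in other cell types from D12 on. On D12 neuron markers summed to 471 and 814 CPM in the controls and to 715 and 861 CPM with TMG. Retinal pigment epithelium markers summed to 200 and 296 CPM in the controls and to 184 and 413 CPM with TMG. Over 6 mesenchyme markers (COL1A1, LUM and others) the sum was 5594 and 29726 CPM in the TMG libraries of D30, and on D70 it was 7333 and 45314 CPM in the controls and 3678 and 59515 CPM with TMG. In bulk RNA, fewer cells of a type and less RNA per cell cannot be told apart.

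Promoters of 4 genes that the results below turn on are shown, from 250 bases before to 50 after the gene's start. They come from the RefSeq table of GRCh38.p14 and were found unchanged on GRCh37, whose coordinates are given. NDUFB4 and UQCRH fell on D12 under every setting tried, and SDHB and SDHA are the catalytic subunits of complex II. Capitals mark matches on either strand to 3 motifs: GABPA as CCGGAAG, and NRF1 and YY1 as the runs of 10 capitals in SDHA and in SDHB, with the base after GCGCA free in NRF1. The end of the GABPA letters is the start of the YY1 letters, so that these motifs can overlap.
NDUFB4 (chr3:120314933-120315232, + strand): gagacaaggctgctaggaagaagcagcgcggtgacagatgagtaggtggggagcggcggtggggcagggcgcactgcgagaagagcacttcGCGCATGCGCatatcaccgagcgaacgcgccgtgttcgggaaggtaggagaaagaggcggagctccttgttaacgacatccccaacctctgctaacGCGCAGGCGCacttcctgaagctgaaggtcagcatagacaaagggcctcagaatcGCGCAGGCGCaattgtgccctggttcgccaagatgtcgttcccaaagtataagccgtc
UQCRH (chr1:46769120-46769419, + strand): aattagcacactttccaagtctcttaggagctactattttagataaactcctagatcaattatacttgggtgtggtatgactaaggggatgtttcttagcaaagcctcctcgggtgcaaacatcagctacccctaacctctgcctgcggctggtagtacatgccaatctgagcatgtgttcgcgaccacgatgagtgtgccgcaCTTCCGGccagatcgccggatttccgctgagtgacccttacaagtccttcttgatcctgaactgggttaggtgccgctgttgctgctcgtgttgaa
SDHB (chr1:17380478-17380777, - strand): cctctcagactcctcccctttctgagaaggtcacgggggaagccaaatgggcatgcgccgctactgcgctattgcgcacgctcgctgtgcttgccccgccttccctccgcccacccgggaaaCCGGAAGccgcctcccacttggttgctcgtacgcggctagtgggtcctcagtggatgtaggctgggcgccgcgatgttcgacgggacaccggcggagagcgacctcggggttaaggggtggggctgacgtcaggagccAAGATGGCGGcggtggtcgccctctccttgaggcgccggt
SDHA (chr5:218185-218484, + strand): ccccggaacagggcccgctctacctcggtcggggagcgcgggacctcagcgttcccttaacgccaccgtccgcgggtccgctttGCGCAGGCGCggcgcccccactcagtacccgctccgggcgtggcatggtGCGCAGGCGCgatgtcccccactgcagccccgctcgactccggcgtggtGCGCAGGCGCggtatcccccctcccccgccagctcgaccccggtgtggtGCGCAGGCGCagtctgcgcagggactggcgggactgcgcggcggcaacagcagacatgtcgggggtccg
NDUFB4 holds 3 NRF1 matches, at -159, -63 and -8 from the start. SDHA holds 4, at -166, -117, -68 and -19, which lie at equal distances from each other. SDHB has a GABPA match at -128 and a YY1 match at +11, while UQCRH has only a GABPA match, at -46.

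Of the 49 genes, 41 had an entry in that table, and NDUFA4, NDUFB5, NDUFB9, NDUFC2, NDUFS5, SDHC and UQCRB were among those without one. At least 1 of the 3 motifs was found in 24 of the 41 (58.5%), against 18.5% of 27305 genes with a promoter of the same length. For YY1 the count was 7 of 41 (17.1%, against 1.46% of all genes), for NRF1 12 (29.3%, against 6.98%) and for GABPA 10 (24.4%, against 12.2%). The TATA box letters TATAAA were in 4 of 41 (9.76%, against 14.0%). A match is a run of letters and not a bound site. The genes compared were alike in promoter length alone, and were not matched to the members in base composition or level.

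Members differed widely in level. NDUFS1, the largest catalytic subunit of complex I, had the highest mean over the 16 libraries, 147 CPM, and NDUFB6, an accessory subunit, the lowest, 12.3 CPM. Levels were also divided by the longest coding sequence, which leaves out untranslated regions, so the order of the members may depend on it. The mean was then highest for NDUFA4 (296 CPM per kb), followed by UQCRH (188) and UQCR11 (187), and lowest for SDHB (23.8). These means pool the stages: UQCRH was above UQCR11 on D0 and below it at the later stages in both arms, and SDHB was not the lowest member in every group. No member was near the limit of detection: the lowest count of any member in any library was 25, for NDUFA7 in TMG replicate 2 of D70.

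The summed level of the 49 genes had its highest mean on D0 in both arms and its lowest on D12 in control cells and on D30 with TMG. In the control libraries it was 2365 and 2409.8 CPM (D0), 1581 and 1832 CPM (D12), 1863 and 1997 CPM (D30), and 2391 and 1776 CPM (D70). In the TMG libraries it was 2411 and 2456 CPM (D0), 1674 and 1855 CPM (D12), 1599 and 1717 CPM (D30), and 2038 and 1809 CPM (D70). On D12 all 4 libraries lay below all 4 of D0, and the mean sum was lower by 28.5% in control cells and by 27.5% with TMG. The sums are given as a description, with no test. On D12, 6 of the 49 genes were higher in replicate 1 in control cells and 11 with TMG. The median differences, replicate 1 less replicate 2, were -0.27 and -0.20 on the log2 scale. Neuron markers were also lower in replicate 1 of both arms on D12, and their part in this was not tested. On D70 the control replicates overlapped with every other stage, and 47 of the 49 genes were higher in replicate 1, with a median difference of 0.41 on the log2 scale. The mesenchyme sums above go with that split, as do the choroid plexus markers, at 9987 CPM in replicate 1 and 213 in replicate 2. Neuron markers summed to 1182 and 581 CPM in these controls. With TMG on D70 the choroid plexus markers summed to 3003 and 3.98 CPM and the neuron markers to 1228 and 222 CPM. There 36 of the 49 genes were higher in replicate 1, with a median difference of 0.17 on the log2 scale. The part of these markers in the differences between replicates was not tested.

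**Figure D1:**
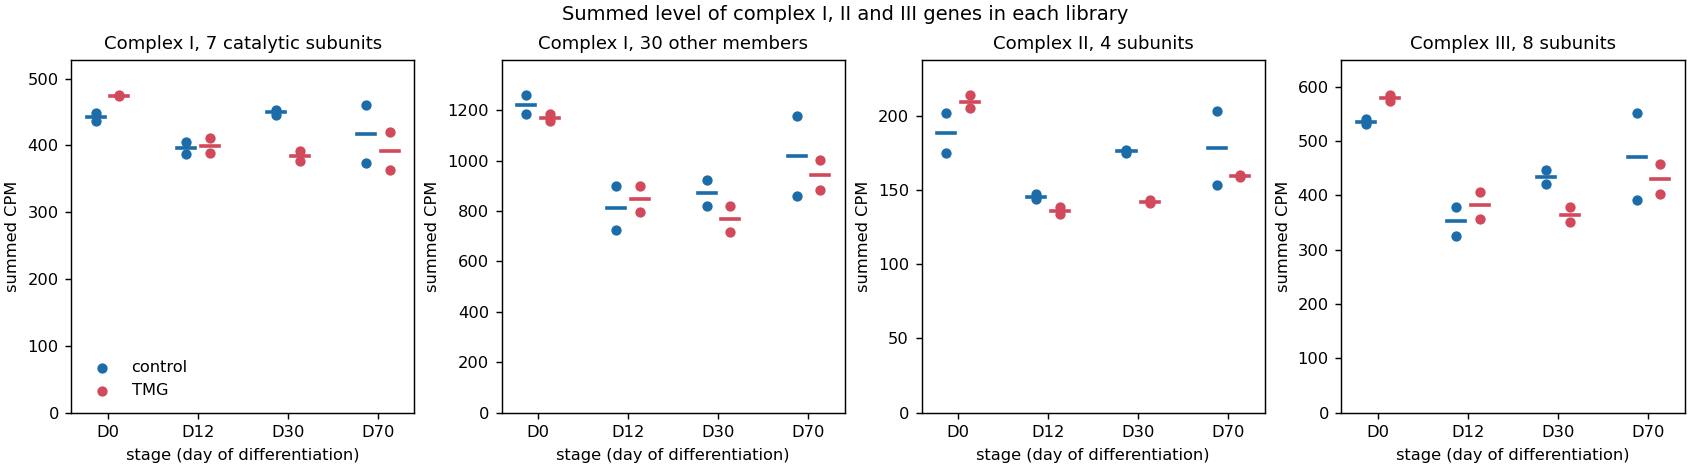
Summed CPM (y axis) of the 7 catalytic subunits of complex I, its 30 other members, complex II and complex III at each stage (x axis). Each point is 1 library and each line the mean of 2, in blue for control and red for TMG; the sums of complex III lay at 532 to 584 CPM on D0 and at 325 to 407 CPM on D12.

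Sorted by stage, 34 of the 49 genes peaked in control cells at D0, 0 at D12, 4 at D30 and 11 at D70. The control mean was lowest at D12 for 27 genes, at D30 for 14, at D70 for 5 and at D0 for 3, NDUFA10, NDUFB5 and NDUFS1. The 4 genes highest on D30 were NDUFA10, NDUFA5, NDUFS1 and UQCRC2. With TMG, 38 genes were highest on D0, and the stage with the most low means was D30 (28 genes) rather than D12 (14 genes).

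The first question was which of these genes change when stem cells become neural progenitors. In control cells 12 of the 49 genes fell from D0 to D12 and 0 rose, at 24.5% of the members against 9.71% of all genes tested that fell and 6.97% that rose. The log2 fold change was below 0 for 46 of 49 genes (93.9%), against 49.5% of all genes, with a median of -0.54 where the median of all genes tested was 0.00. For 42 genes (85.7%) both D12 libraries lay below both D0 libraries, which held for 33.2% of all genes. The 3 with a value above 0 were NDUFB5, NDUFS1 and NDUFA10, at 0.15, 0.11 and 0.04.

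Complex I accessory subunits made up 7 of the 12. NDUFB4, a subunit of the proton-pumping membrane arm, had 62.0 and 56.7 CPM on D0 and 26.3 and 29.2 CPM on D12 in control cells. It fell by 1.10 on the log2 scale (standard error 0.14, adjusted p = 0.00149 by edgeR). NDUFS6, which carries a zinc site of the matrix arm and serves the end of its assembly, went from 32.9 and 44.6 CPM to 13.9 and 17.1. Its fall was 1.32 on the log2 scale (standard error 0.31, adjusted p = 0.0159 by edgeR), and it had the lowest D12 level of the 3 genes named here. NDUFB10, a membrane arm subunit, went from 50.4 and 57.0 CPM to 19.5 and 23.9, a change of -1.31 (standard error 0.27, adjusted p = 0.00964 by edgeR). In each of these genes the stages did not overlap. NDUFB9, NDUFB7, NDUFS5 and NDUFA6 also fell, by 1.21, 1.18, 0.92 and 0.74 on the log2 scale.

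Of the 7 catalytic subunits of complex I, 0 passed the test in either arm, where 9.71% of all genes tested fell in control cells and 9.19% with TMG, so a count of 0 among so few genes does not set them apart. In control cells their changes ran from -0.42 for NDUFV2 (standard error 0.16, adjusted p = 0.0892 by edgeR) to 0.11 for NDUFS1 (standard error 0.18), and the other 30 members of complex I had a median of -0.62. NDUFV2, one of the subunits that hold an iron-sulfur cluster near the NADH site, was at 51.5 and 52.7 CPM on D0 and at 37.4 and 40.4 CPM on D12, so its stages did not overlap either. By DESeq2, NDUFV2 passed (adjusted p = 0.0284), as did 22.6% of all genes tested in either direction. NDUFS1 stood at 125 and 121 CPM on D0 and at 140 and 126 CPM on D12, with higher values on D12 in both libraries. For NDUFS3, NDUFS7, NDUFS8 and NDUFV1 the values were between -0.39 and -0.15. Catalytic and accessory subunits were not tested against each other.

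In complex II the 4 subunits did not move alike. SDHB, the iron-sulfur subunit, went from 23.2 and 24.3 CPM on D0 to 13.9 and 15.5 CPM on D12 in control cells, a fall of 0.69 on the log2 scale (standard error 0.17, adjusted p = 0.0217 by edgeR) that did not pass without the filter on low counts or with only the 4 libraries compared. SDHD, the small membrane anchor, went from 31.9 and 29.7 CPM to 15.2 and 18.9 and fell by 0.85 (standard error 0.21, adjusted p = 0.0219 by edgeR). SDHC, the other anchor, was at 44.8 and 41.7 CPM and then at 39.7 and 40.2, a change of -0.11 (standard error 0.19) that did not pass. SDHA, the flavin subunit, changed by -0.29 (standard error 0.17) in control cells and did not pass there. With TMG it went from 100 and 104 CPM to 60.7 and 60.4 CPM and fell by 0.75 (standard error 0.17, adjusted p = 0.0142 by edgeR). SDHA has 4 near copies in the table that take between 34.6% and 50.2% of their joint counts, and with the copies added the TMG fall was 0.40 (adjusted p = 0.0683 by edgeR), so its value is uncertain.

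In complex III, UQCRH, the hinge protein, changed most of all 49 genes. It had 95.5 and 98.4 CPM on D0 and 33.6 and 38.8 CPM on D12 in control cells, and fell by 1.42 on the log2 scale (standard error 0.22, adjusted p = 0.00276 by edgeR). With TMG it went from 105 and 104 CPM to 36.2 and 44.2 CPM and fell by 1.38 (standard error 0.22, adjusted p = 0.00312 by edgeR). Near copies, of which the table holds 5, took 2.36% to 9.89% of the joint counts, and with them added the control fall was 1.36. UQCRFS1, the Rieske protein, went from 50.4 and 44.2 CPM to 25.7 and 27.4 CPM in control cells and fell by 0.83 (standard error 0.26, adjusted p = 0.0475 by edgeR). That call was lost with a replicate block (adjusted p = 0.0523 by edgeR), without the filter on low counts, and in all but 4 of the 16 fits that left out 1 library. UQCRB fell by 0.56, a call lost without the filter and with only the 4 libraries compared. The core proteins did not pass in control cells: UQCRC1 was at -0.51 (standard error 0.23, adjusted p = 0.15 by edgeR) in control cells, and UQCRC2 at -0.06 (standard error 0.14), with 89.3 and 88.7 CPM on D0 and 82.0 and 88.4 CPM on D12.

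The TMG arm shares no library with the control arm, but each gene's spread was estimated over all 16 libraries. The calls of the 2 arms are therefore not independent. With TMG 12 of the 49 genes also fell from D0 to D12 and 0 rose (24.5%, against 9.19% of all genes tested that fell and 7.24% that rose). The median of the 49 was -0.42, against 0.04 over all genes, and 46 genes (93.9%) had both D12 libraries below both of D0, against 36.4% of all genes. The 2 lists of 12 share 10 genes (83.3% of each): NDUFA6, NDUFB4, NDUFB9, NDUFB10, NDUFS5, NDUFS6, SDHB, SDHD, UQCRFS1 and UQCRH. Of these, NDUFB4, NDUFB9, NDUFS6 and UQCRH passed in both arms under all 6 settings other than leaving out a library. NDUFB7 and UQCRB passed in control cells alone, and SDHA and UQCRC1 in TMG cells alone. No gene passed the test of the difference between the arms' changes (0 of 49 members, 0.00% of all genes tested; 0 of 49 at an unadjusted p under 0.05, against 1.07%; 0 of 49 by DESeq2, against 0.0124%). UQCRC1 went from 138 and 146 CPM to 78.9 and 85.4 CPM with TMG and fell by 0.79 (standard error 0.23, adjusted p = 0.0393 by edgeR), a call kept in 6 of the 16 fits that left out 1 library.

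**Figure D2:**
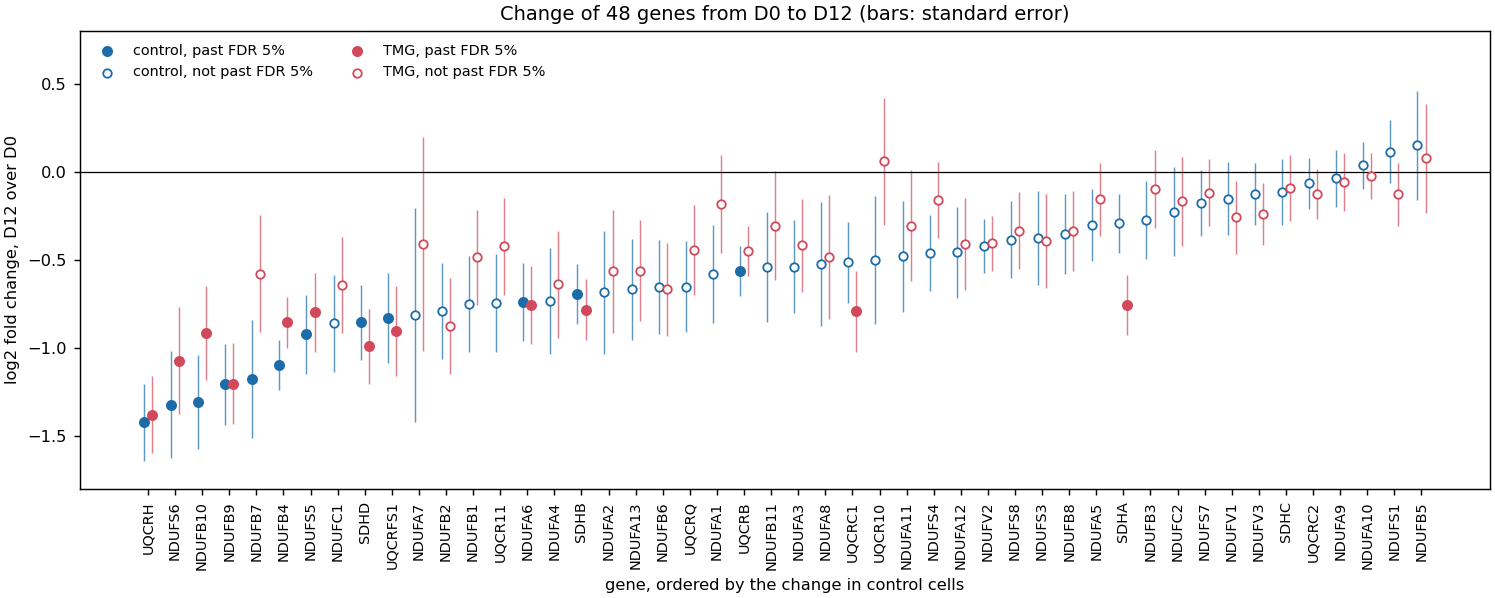
Log2 fold change of D12 over D0 (y axis) for 48 of the 49 genes, ordered by the change in control cells (x axis), in control (blue) and TMG cells (red). Bars are standard errors and filled points passed a false discovery rate of 5%; the points run from -1.42 for UQCRH to 0.15 for NDUFB5 in control cells.

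NDUFB4 and UQCRH stayed past the threshold in both arms when each of the 16 libraries was left out in turn. NDUFB9 and NDUFS6 passed in 12 to 14 of those 16 fits, NDUFB10 in 14 in control cells and 8 with TMG, and NDUFA6 in 7 and 6. Without the filter on low counts, NDUFA6, SDHB, SDHD, UQCRB and UQCRFS1 lost their calls in control cells, and NDUFA6, NDUFB10, NDUFS5, SDHB and UQCRC1 with TMG. The counts were less stable: without D12 control replicate 1 the control count was 2, without D12 control replicate 2 it was 4, and without D0 control replicate 1 or 2 it was 5 or 3. In the TMG arm it was 2, 4, 2 and 3 without D12 TMG replicate 1, D12 TMG replicate 2, D0 TMG replicate 1 and D0 TMG replicate 2. The median of the 49 stayed below 0 throughout, between -0.77 and -0.39 in control cells, without D12 control replicate 2 and 1, and between -0.56 and -0.32 with TMG.

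In control cells the change went with the length of the genes. Across the 49 genes, Spearman's correlation of the control change from D0 to D12 with the longest coding sequence was 0.52, where it was 0.11 over 16179 genes with a length. The genes share their libraries, so no p-value is given. In the 17 members of at most 400 coding bases the median was -0.73, against -0.34 for 720 other genes of that length. In the 7 members between 1000 and 1500 bases it was -0.13, against -0.05 for 3704 others. With TMG the correlation was 0.18 (0.08 over all genes), and the members' medians were -0.49 at most 400 bases, -0.24 between 1000 and 1500 and -0.44 for the 2 members between 1500 and 2500, so the pattern was weaker there. The difference between the arms' changes, TMG less control, correlated with length at -0.70 over the members and at -0.07 over all genes. The catalytic subunits of complex I are among the longer genes. Levels of MALAT1 and NEAT1, long RNAs of the nucleus, moved as well: their sum was 4166 to 6483 CPM on D0 and 28092 to 39342 CPM on D12. Of 82 cytosolic ribosomal protein genes, which are short, 74 fell in control cells (median -1.12) and 22 with TMG (median -0.65). Whether length or RNA makeup has a part in the change of the members was not tested.

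**Figure D3:**
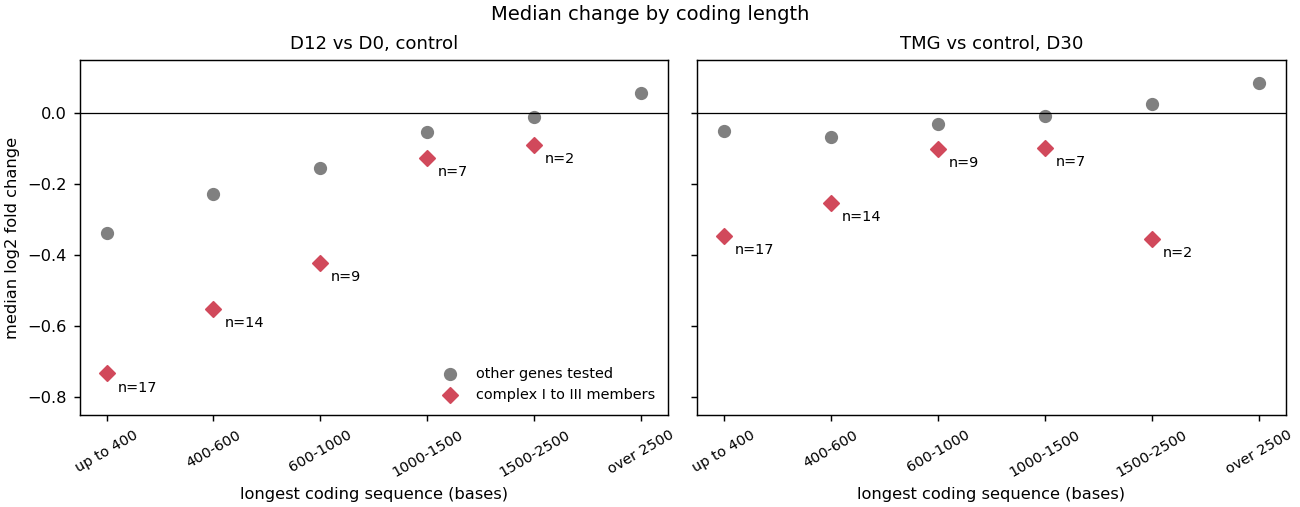
Median log2 fold change (y axis) by longest coding sequence (x axis, bases) for the complex I to III members (red diamonds, with their number) and all other genes tested (grey points), for D12 over D0 in control cells and for TMG over control on D30. In the shortest class the members' median was -0.73 and that of the other genes -0.34 for D12 over D0.

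Other genes of respiration also had medians below 0 from D0 to D12 in control cells, where 9.71% of all genes tested fell and 6.97% rose. Of 10 nuclear genes of complex IV, cytochrome c oxidase, 5 fell, with a median of -0.86, and COX5A fell by 1.49 on the log2 scale (standard error 0.22, adjusted p = 0.00216 by edgeR). Of 15 genes of complex V, the ATP synthase, 6 fell (median -0.61), and ATP5MC1, a subunit of the membrane ring, fell by 1.77 (standard error 0.29, adjusted p = 0.00356 by edgeR). NDUFAB1, the acyl carrier protein that is also a subunit of complex I, fell by 0.89 (adjusted p = 0.0191 by edgeR), and CYC1, cytochrome c1 of complex III, was at -0.73 (adjusted p = 0.0829 by edgeR). No gene of these lists rose. Subunits encoded by mitochondrial DNA were not analysed here.

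The lists that follow are small, and 9.71% of all genes tested fell in control cells and 9.19% with TMG. Of 14 complex I assembly factors 4 fell in both arms: NDUFAF7, NDUFAF4, ECSIT and TMEM126B, by 1.12, 1.39, 1.18 and 0.88 on the log2 scale in control cells. Of 4 complex II factors 0 passed the test, and of 6 complex III factors 1 fell in each arm, UQCC3 in control cells and LYRM7 with TMG. Among 11 regulators of mitochondrial biogenesis 5 fell with TMG and 4 in control cells. In control cells TFAM, which binds mitochondrial DNA, fell by 0.78 (standard error 0.16, adjusted p = 0.0101 by edgeR). There the receptor ESRRA fell by 1.28, and the coactivators PPRC1 and PPARGC1B by 1.43 and 0.97. The factors whose motifs were searched did not pass: NRF1 was at -0.17 (standard error 0.28), GABPA at 0.12 (standard error 0.16) and YY1 at -0.19 (standard error 0.15). Here too, 0 rose.

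From D12 to D30 the changes of the members in control cells ran from -0.86 to 0.93 on the log2 scale. NDUFA5, an accessory subunit of the matrix arm, was the only member that passed, rising from 30.7 and 28.1 CPM to 61.9 and 50.2 CPM (log2 fold change 0.93, standard error 0.21, adjusted p = 0.037 by edgeR). That is 2.04% of the members, against 1.91% of all genes tested that rose and 1.69% that fell. The call was lost when any of 10 of the 16 libraries was left out. UQCRC2, SDHD and UQCRB were at 0.47 (standard error 0.14), 0.72 (standard error 0.21) and 0.47 (standard error 0.14), and passed by DESeq2, which called 6 members (10.3% of all genes tested), but not by edgeR (adjusted p of 0.0979, 0.0877 and 0.0949). The median of the 49 was 0.13, and ran from 0.04 without D12 control replicate 1 to 0.24 without D30 control replicate 1. With TMG, 0 of 49 passed (0.511% of all genes tested; 1 higher and 4 lower at an unadjusted p under 0.05, against 7.86% and 7.15%, and 2 by DESeq2, NDUFB4 and NDUFS6, against 4.78%), and the median was -0.14, between -0.29 without D30 TMG replicate 2 and -0.04 without D12 TMG replicate 2.

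From D30 to D70, 0 of 49 members passed in control cells (0.384% of all genes tested; 4 of 49 at an unadjusted p under 0.05, against 18.4%, and 2 by DESeq2, NDUFA11 and NDUFB2, against 7.08%). NDUFA11, a membrane arm subunit, was at 17.5 and 26.1 CPM on D30 and at 57.9 and 39.6 CPM on D70. A gene that overlaps NDUFA11 held 27 and 114 counts on D30, beside 186 and 521 for NDUFA11. On D70 it held 35 and 15, beside 901 and 492, so the value of NDUFA11 is uncertain. NDUFB2 was at 13.3 and 13.1 CPM and then at 28.7 and 22.3 CPM. In both genes the stages did not overlap, and both were lower on D30 than on D0. In TMG cells 0 of 49 passed as well (0.00825% of all genes tested; 9 higher and 0 lower at an unadjusted p under 0.05, against 6.45% and 4.51%, and 0 by DESeq2, against 1.53%). There 28 genes (57.1%) had both D70 libraries above both D30 libraries, against 14.9% of all genes, and in control cells 16 (32.7%) did, against 24.0%.

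**Figure D4:**
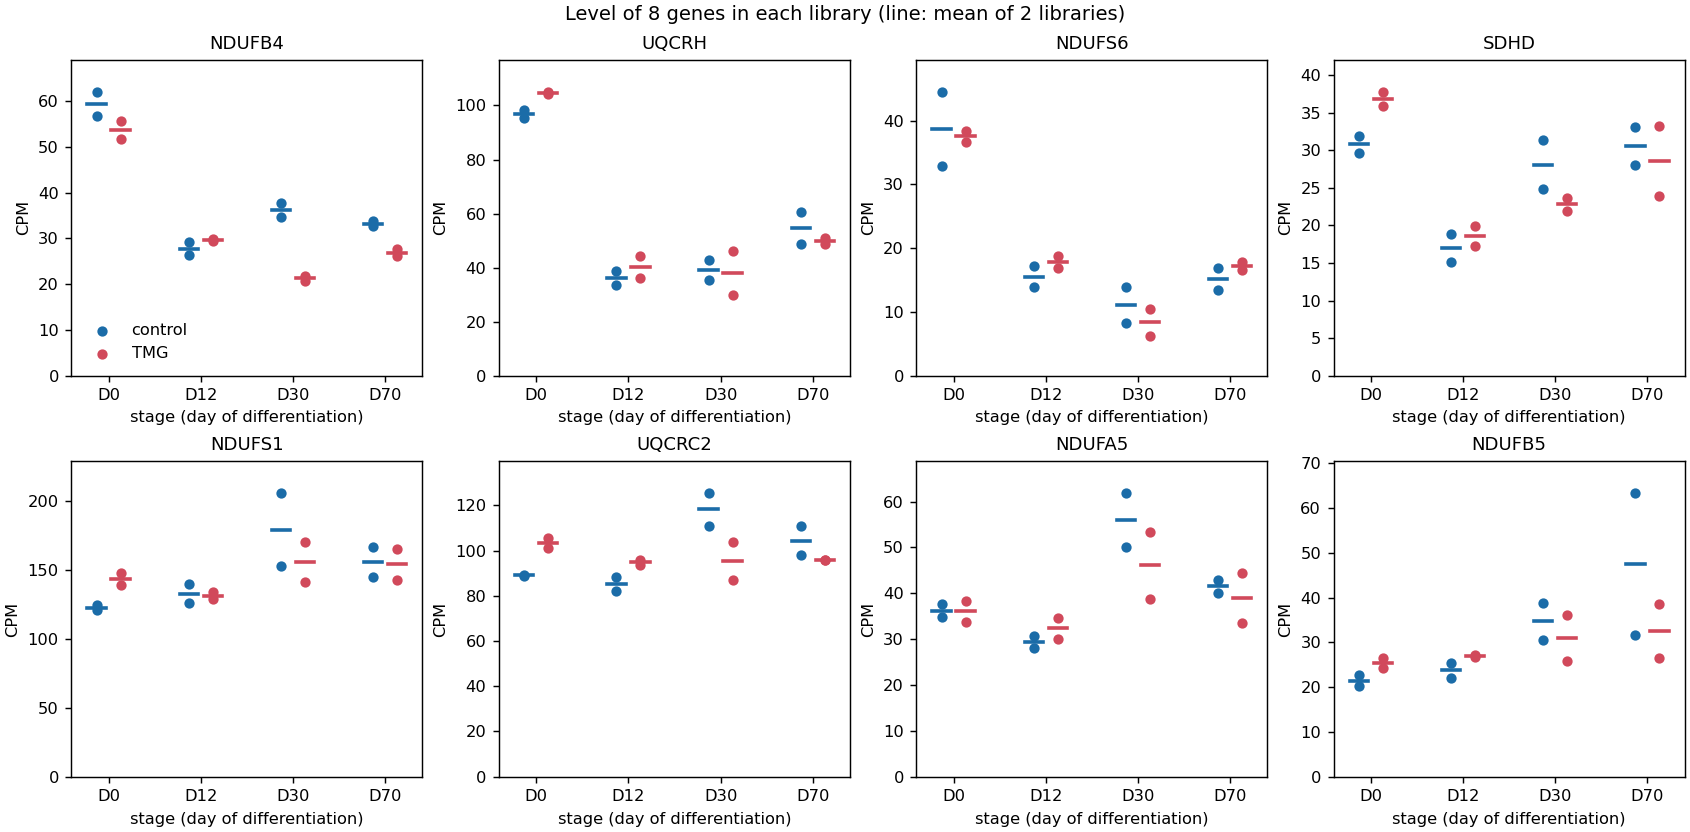
CPM (y axis) of 8 genes in each library by stage (x axis), in blue for control and red for TMG, with a line at the mean of 2 libraries. NDUFB4, UQCRH and NDUFS6 stay below their D0 values at every later stage, SDHD lies on D70 at 23.9 to 33.3 CPM against 29.7 to 37.8 CPM on D0, and NDUFS1, UQCRC2, NDUFA5 and NDUFB5 passed the test as lower in no stage comparison.

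Between D0 and D70, 7 members fell and 1 rose in control cells: 14.3% against 14.7% of all genes tested that fell, and 16.3% against 29.8% in either direction. The share that fell is that of the background. The 7 were NDUFS6 (-1.35), NDUFB9 (-0.93), NDUFB10 (-0.92), NDUFB4 (-0.84), UQCRH (-0.83), NDUFS5 (-0.77) and NDUFS8 (-0.76), and 6 of them, all but NDUFS8, had also fallen by D12; both lists use the D0 control libraries. NDUFS8, a catalytic subunit with iron-sulfur clusters, was at 67.2 and 60.2 CPM on D0 and at 43.1 and 32.4 CPM on D70. NDUFS6 had 16.9 and 13.4 CPM on D70, near its D12 values. NDUFB5, a membrane arm subunit, was the only member that rose, from 22.6 and 20.2 CPM to 63.5 and 31.7 CPM (log2 fold change 1.15, standard error 0.31, adjusted p = 0.0192 by edgeR), and its D70 replicates differed more than its D12 and D30 replicates. Without D70 control replicate 1 the change was 0.57 and did not pass, and the call was also lost without either D0 control replicate and with only the 4 libraries compared.

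In TMG cells 11 members fell from D0 to D70 and 0 rose (22.4%, against 14.1% of all genes tested that fell and 14.9% that rose). The largest fall was 1.13 on the log2 scale, for NDUFS6. Among them were catalytic subunits of all 3 complexes: NDUFV2 (-0.72) and NDUFS8 (-0.84) of complex I, SDHA (-0.65) of complex II and UQCRFS1 (-0.85) of complex III. Of the 11, 6 also fell in control cells. The control count was 3, 2 and 4 without D0 control replicate 1, D0 control replicate 2 and D70 control replicate 2, and the TMG count was 3, 3 and 4 without D0 TMG replicate 1, D0 TMG replicate 2 and D70 TMG replicate 2. With only the 4 libraries of a comparison the counts were 1 in control cells, NDUFS6, and 3 with TMG, NDUFB4, NDUFS6 and UQCRH, so that none of the catalytic subunits named passed there. NDUFV2 and SDHA also lost their calls without the filter, and the value of SDHA is uncertain because of its near copies. The control median of the 49, -0.18, ran from -0.43 without D70 control replicate 1 to 0.02 without D70 control replicate 2.

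The second question was whether TMG alters these genes at a stage. No member passed the test at any stage, and neither did any other gene. On D0 the count was 0 of 49 (0.00% of all genes tested; 0 members at an unadjusted p under 0.05, against 1.26%, and 0 by DESeq2, against 0.0206%), with a median of -0.01. The differences went with coding length: Spearman's correlation was 0.55 over the 49 genes and 0.08 over all genes, and the members' median was -0.14 at most 400 bases, 0.17 between 1000 and 1500, and 0.20 for the 2 between 1500 and 2500. The lowest p belonged to UQCRFS1, at 50.4 and 44.2 CPM in control and 64.9 and 61.7 CPM in TMG cells, a difference of 0.42 (standard error 0.25). UQCRC2 followed at 0.21 (standard error 0.14), with 101 and 105 CPM above the control values. NDUFB10 was lower with TMG, at 39.7 and 43.9 CPM, a difference of -0.36 (standard error 0.26).

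On D12 the count was again 0 of 49 (0.00% of all genes tested; 0 members at an unadjusted p under 0.05, against 2.48%, and 0 by DESeq2, against 0.0454%). The log2 fold change was above 0 for 36 of 49 genes (73.5%, against 50.3% of all genes tested), with a median of 0.06, but for 7 genes (14.3%) both TMG libraries lay above both controls, against 17.8% of all genes. The median ran from -0.07 without D12 control replicate 1 to 0.25 without D12 control replicate 2, and it was also below 0 without D12 TMG replicate 2. Other lists leaned higher too: 77 of 82 cytosolic ribosomal protein genes (median 0.36), 9 of 10 complex IV genes and 14 of 15 complex V genes were above 0. Of the neuron markers 6 of 7 were above 0, and of the neural progenitor markers 0 of 5 (median -0.49). The part of these in the values of the members was not tested. NDUFS4, whose product joins complex I late in its assembly, was at 12.6 and 12.1 CPM in control and 16.1 and 16.03 CPM in TMG cells, 0.38 higher on the log2 scale (standard error 0.22). SDHA was 0.29 lower (standard error 0.17) and NDUFV3 0.25 lower (standard error 0.18).

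On D30 the members leaned lower with TMG. The log2 fold change was below 0 for 40 of 49 genes (81.6%, against 48.9% of all genes tested), with a median of -0.23 against 0.01 over all genes. For 19 genes (38.8%) both TMG libraries lay below both controls, against 21.0% of all genes, and for 2 (4.08%) above, against 23.1%. None passed by edgeR (0 of 49, 0.00% of all genes tested), while 7 were lower (14.3%, against 4.89%) and 1 higher (2.04%, against 7.10%) at an unadjusted p under 0.05, and 2 were lower by DESeq2 (against 2.46% in either direction). Of the 10 genes of complex IV all were below 0 (median -0.27), and of 82 cytosolic ribosomal protein genes 63 were (median -0.18), so the lean was not shown to be particular to the members. Other lists leaned less or not at all. Below 0 were 10 of 15 complex V genes (median -0.04) and 9 of 14 complex I assembly factors (median -0.08). Of 11 regulators of mitochondrial biogenesis 4 were below 0 (median 0.08). The mean sum of the 49 was lower by 14.1%, and that of complex II by 19.2%. The median of the 49 ran from -0.39 without D30 TMG replicate 2 to -0.11 without D30 control replicate 2.

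NDUFB4 had the lowest p of the members on D30. Its level was 34.6 and 37.7 CPM in control cells and 21.9 and 20.6 CPM in TMG cells, a difference of -0.77 on the log2 scale (standard error 0.14, adjusted p = 0.155 by edgeR). By DESeq2 it passed (adjusted p = 3.92e-05). The 12 near copies of NDUFB4 take 2.34% to 10.7% of the joint counts, and with them added the difference was -0.71. On D12 the TMG libraries were at 29.5 and 29.9 CPM, against 26.3 and 29.2 CPM in the controls, and the TMG effect differed between D30 and D12 by -0.87 (standard error 0.20, unadjusted p = 0.00134, adjusted p = 1.0 by edgeR and 0.0107 by DESeq2). Over all such tests of D30 against D12, 0 of 49 passed by edgeR (0.00% of all genes tested) and 1 by DESeq2 (0.0701%), and 3 were lower at an unadjusted p under 0.05 (against 1.59%).

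UQCRB, a small subunit that helps to bind ubiquinone, was at 67.9 and 64.3 CPM in control and 47.6 and 49.3 CPM in TMG cells on D30, a difference of -0.45 (standard error 0.14, adjusted p = 0.27 by edgeR and 0.0426 by DESeq2). SDHA was at 82.0 and 85.4 CPM against 59.7 and 58.4 CPM, a difference of -0.50 (standard error 0.17, adjusted p = 0.29 by edgeR), and -0.54 with its copies added. In neither gene did the arms overlap. The others lower at an unadjusted p under 0.05 were NDUFS7, NDUFS8, NDUFV3 and NDUFB10, with differences from -0.64 to -0.50. The largest difference of any member was that of NDUFA7, an accessory subunit at 12.03 and 23.0 CPM in control and 9.03 and 8.99 CPM in TMG cells, at -0.96 with a standard error of 0.62 (adjusted p = 0.581 by edgeR). NDUFA11 was the gene higher with TMG at an unadjusted p under 0.05. It was at 25.2 and 48.3 CPM against 17.5 and 26.1 CPM, so that its arms overlapped. A gene that overlaps NDUFA11 held 27 and 114 counts in the controls, beside 186 and 521 for NDUFA11. With TMG it held 16 and 1, beside 259 and 510, so the value of NDUFA11 is uncertain. The 2 TMG libraries of D30 have the most uneven mesenchyme sums of that stage, 5594 and 29726 CPM against 4343 and 5170 CPM in the controls, and MALAT1 and NEAT1 sums that overlap, 56044 and 26877 CPM against 69700 and 54733 CPM. Neuron markers summed to 806 and 1022 CPM with TMG, above the controls at 562 and 678 CPM, and neural progenitor markers to 728 and 544 CPM, below the controls at 844 and 772 CPM. The part of these in the lower values of the members was not tested.

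**Figure D5:**
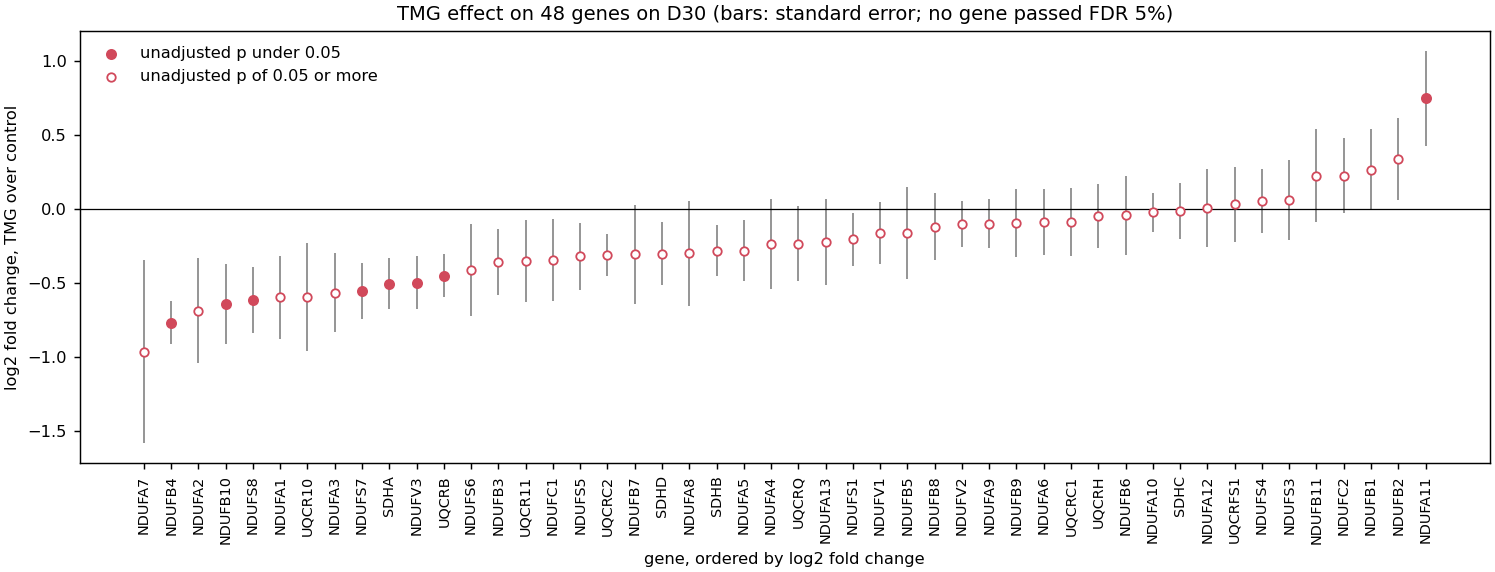
Log2 fold change of TMG over control on D30 (y axis) for 48 of the 49 genes, ordered by that value (x axis), with standard errors as bars. Filled points had an unadjusted p under 0.05 and no gene passed a false discovery rate of 5%; most points lie below 0, with NDUFB4 at -0.77.

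On D70, 0 of 49 members passed (0.00% of all genes tested; 0 at an unadjusted p under 0.05, against 5.49%, and 0 by DESeq2, against 0.227%). The median was -0.11, and 37 genes were below 0 (75.5%, against 51.0%), but the median was -0.25 without D70 control replicate 2 and 0.13 without D70 control replicate 1. NDUFB4 was again the member with the lowest p, at 33.7 and 32.8 CPM in control and 27.7 and 26.1 CPM in TMG cells, a difference of -0.31 (standard error 0.14, adjusted p = 0.902 by edgeR), and its arms did not overlap. NDUFB5 was at 63.5 and 31.7 CPM against 38.6 and 26.5 CPM, which overlap. Its difference of -0.55 (standard error 0.31) became 0.04 without D70 control replicate 1. NDUFA9 was 0.24 higher (standard error 0.16). The change of the TMG effect from D30 to D70 passed in 0 of 49 members (0.00% of all genes tested; 1 at an unadjusted p under 0.05, against 4.03%, and 0 by DESeq2, against 0.0990%).

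Over the 16 libraries, the genes outside the list whose log2 level was most like the log2 of the summed members were COX5B and COX7C of complex IV, with Pearson's r of 0.975 and 0.970, then MDH2, mitochondrial malate dehydrogenase (0.959), SLC25A39, a mitochondrial carrier (0.957), and COX6A1 of complex IV (0.956). The libraries share stages, arms and scaling, so these values describe the libraries and carry no p-value.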

How the data were processed

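Per the labels and the study's methods, total RNA was depleted of rRNA, reads were aligned with Bowtie2 to hg19, and RSEM 1.2.12 estimated counts for Ensembl genes; the authors deposited these expected counts as whole numbers, not normalized. Estimates divide reads between near-identical copies, which makes SDHA and other members with pseudogenes uncertain. Expected counts were used as deposited.

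Symbols were matched through Ensembl IDs (43484 IDs named), and coordinates are GRCh37. edgeR 4.0.16 in R 4.3.3 (TMM, filterByExpr with a minimum count of 10 and a minimum total of 15, robust quasi-likelihood F-test) was fitted with 1 mean for each of 8 groups, leaving 8 residual degrees of freedom. Benjamini-Hochberg adjustment was made in each comparison over 24249 genes. Log2 CPM used a prior count of 2. Depth was 10334908 to 19836878 counts, and the spread between replicates exceeded counting error in all 8 groups. In simulated counts, 73 of 200 genes changed 4-fold between D0 and D12 were recovered with 5 unchanged genes called, and 103 of 200 for TMG on D30 with 4 called.

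Alternatives were DESeq2 1.42.0, RLE scaling, no filter, a replicate block, only the libraries compared, each library left out, and, chosen after seeing the data, copies added to the members. One member of complex I enters the counts but is not reported by name here. Members and lists were chosen with earlier results of these data known. Named were the catalytic subunits, complex II, the complex III core and Rieske proteins, the 3 largest changes past the threshold in each direction and stage comparison, the 3 lowest p for TMG at each stage, and the highest and lowest means; other members were named after their values were seen.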

Additional observations from a re-analysis of the deposited data

Results flagged for a closer look

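Summed levels of the members lay on opposite sides of the controls with TMG at different stages, with both TMG libraries on one side of both controls at each. These differences between stages were found by looking at the libraries, and they were not tested. For all 49 members both TMG libraries lay above both controls on D0 and below both on D30, and the difference between the log2 ratios was -0.2468. The margin on D0 was small, 2410.7 CPM in the lower TMG library against 2409.8 CPM in the higher control, and by gene 25 of the 49 were below 0 there, with a median of -0.01. For the 7 catalytic subunits of complex I it was -0.3285, and for complex III -0.3631. For complex II, TMG libraries were above both controls on D0 and below both on D12 (-0.251) and on D30 (-0.4629). On D12 the lower sum came from SDHA, at a mean of 73.9 CPM in control and 60.6 CPM in TMG cells, whose value is uncertain because of its near copies; the means of SDHB, SDHC and SDHD were higher with TMG. On D0 the complex II sums were 202 and 175 CPM in control and 205 and 214 CPM in TMG cells, and on D30 they were 177 and 175 CPM against 141 and 143 CPM. In the D30 sums SDHA, uncertain there too, went from a mean of 83.7 CPM in control to 59.1 CPM in TMG cells.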

How the results depend on the processing

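RLE scaling and the copies added to the members left every count of called members within 1.5 times its main value. DESeq2 called more members: 2 for TMG on D30, 6 from D12 to D30 and 2 from D30 to D70 in control cells. It also called 2 from D12 to D30 with TMG, and 1 for the TMG effect of D30 against D12. For D12 over D0 it called 16 in control cells and 15 with TMG (against 22.6% and 22.4% of all genes tested). For D70 over D0 it called 10 and 12 (against 35.1% and 34.0%). Without the filter, which adds genes to the adjustment, 7 members were called in each of D12 over D0 in control cells, D12 over D0 with TMG and D70 over D0 with TMG. With only the libraries compared, D70 over D0 gave 1 member in control cells and 3 with TMG, and D12 over D0 with TMG gave 19; the cause was not tested. When each library was left out, where the lone sample is assumed to vary like the other groups, the counts ranged from 2 to 14 for D12 over D0 in each arm, from 2 to 10 and from 3 to 15 for D70 over D0 in control and TMG cells, from 0 to 1 for D30 over D12 in control cells, and from 0 to 1 for TMG on D70 and for D70 over D30 with TMG, both 1 without D70 TMG replicate 1. For TMG on D70, NDUFB5 ran from -0.94 to 0.040, the latter without D70 control replicate 1. Groups share replicate numbers only by label: deviations of same-numbered libraries correlated between arms at 0.05 (D0), 0.37 (D12), 0.22 (D30) and 0.61 (D70). In the fit with the replicate block the counts were 12 and 13 for D12 over D0 in control and TMG cells, 8 and 11 for D70 over D0, 1 for D30 over D12 in control cells and 0 elsewhere, and UQCRFS1 lost its control call on D12 (adjusted p = 0.0523 by edgeR). The lowest count of any member was 25, and whether depth limits the calls was not tested.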

Other observations

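NDUFA4L2, a paralogue of NDUFA4, was at 4.31 and 31.3 CPM in the control libraries of D70 and at 3.08 and 17.9 CPM in the TMG libraries, and at most 4.83 CPM in any library of the earlier stages. It was higher in replicate 2 of both arms, the libraries with the higher mesenchyme sums, while 47 and 36 of the 49 members were higher in replicate 1.

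NDUFA7, an accessory subunit of complex I, was at 2.31 CPM in TMG replicate 2 of D70 and at 8.99 CPM or more in every other library. In that library 25 counts went to NDUFA7 and 60 to the overlapping gene ENSG00000167774, which was listed at 0 in 14 libraries and at 21 in TMG replicate 1 of D12.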
